A study of Mus musculus with 12 samples.

Results

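The 37 genes described here are a hand-picked module of B lymphocyte identity and antigen receptor signalling, and they were measured in the mouse spleen after busulfan and fecal microbiota transplantation (FMT). The members were chosen by gene symbol. The rule listed 38 symbols, of which Faim3 and Fcmr are 1 gene. All 37 passed the filter on low values, out of 12671 genes tested and 18221 genes measured.

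The 12 spleens were those of male ICR mice, an outbred stock, with 3 in each of 4 groups. Con-sa mice received saline and no busulfan, and their labels give the agent as Blank. All mice of B-sa, of B+Con-FMT and of B+A10-FMT received busulfan, an alkylating anti-cancer drug, as a single injection of 40 mg/kg. B-sa mice were then dosed with saline, B+Con-FMT mice with intestinal content of control donors, and B+A10-FMT mice with that of donors given alginate oligosaccharide (AOS) at 10 mg/kg. Dosing was oral for 2 weeks, the mice were 3 weeks old at the start and 8 weeks old at collection, and no group received FMT without busulfan. The donor material was pooled, so the mice of a transfer group shared 1 source.

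A B lymphocyte recognizes antigen with membrane immunoglobulin that is held in a complex with the chains Igα and Igβ. Tyrosine motifs in these chains recruit Src-family kinases and SYK, and adaptors carry the signal on to calcium, NF-κB and PI3K, while CD22 and related receptors hold it back. In the spleen, follicular B cells recirculate through the white pulp, marginal zone B cells stay at its edge under NOTCH2 control, and germinal centre B cells mutate and select their receptors.

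Values are RPKM (mapped reads per kilobase of transcript, scaled to the size of the library), summed over the transcripts of a gene. Depth was estimated from the steps between low RPKM values at 14400000 to 15200000 reads per mouse. A gene was called higher or lower when limma's adjusted p on log2(RPKM + 1) was under 0.05. The 4 defining B cell markers Ms4a1, Cd79a, Cd79b and Pax5 were high in every mouse, with a summed RPKM of 1424 to 1571 in Con-sa mice, 1077 to 1294 in B-sa mice, 1242 to 1325 in B+Con-FMT mice and 1261 to 1312 in B+A10-FMT. In whole-spleen RNA scaled to the library, fewer B cells, less RNA per B cell and more RNA from other cells cannot be told apart. Globin genes took 24.9% to 25.9% of the summed RPKM in Con-sa mice, 27.98% to 32.4% in B-sa mice, 25.3% to 29.4% in B+Con-FMT mice and 23.3% to 27.6% in B+A10-FMT. Among them Hbb-bs, an adult beta-globin gene, had an RPKM of 25330, 45902 and 20290 in Con-sa mice, 30.5, 17.3 and 9.2 in B-sa mice, 36.4, 20930 and 4025 in B+Con-FMT mice and 8916, 13234 and 10623 in B+A10-FMT mice. The B-sa mice and B+Con-FMT mouse 1 thus stood apart from the others in Hbb-bs, and Hbb-bt showed the same order of groups, with 4650 to 10095 RPKM in Con-sa mice and 11.7 to 16.4 in B-sa. Near-identical beta-globin genes can share reads. B-sa mouse 2, which had the highest globin share, was the lowest of its group for 33 members, and B-sa mouse 1 was the highest for 34. Over all genes, the comparison of B-sa with Con-sa called 599 genes higher and 1239 lower, and 965 higher and 772 lower when samples were scaled by median of ratios. That scaling also turned the split of all genes from 507 higher and 161 lower to 282 and 349 for B+A10-FMT against B-sa, from 960 and 352 to 561 and 696 for B+A10-FMT against B+Con-FMT, and from 292 and 832 to 578 and 528 for B+Con-FMT against Con-sa. With equal totals outside the globin genes, the splits were 67 and 113 for B+Con-FMT against B-sa (79 and 28 in the main analysis), 2099 and 239 for B+A10-FMT against B+Con-FMT, and 199 and 1638 for B+Con-FMT against Con-sa.

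**Figure D1:**
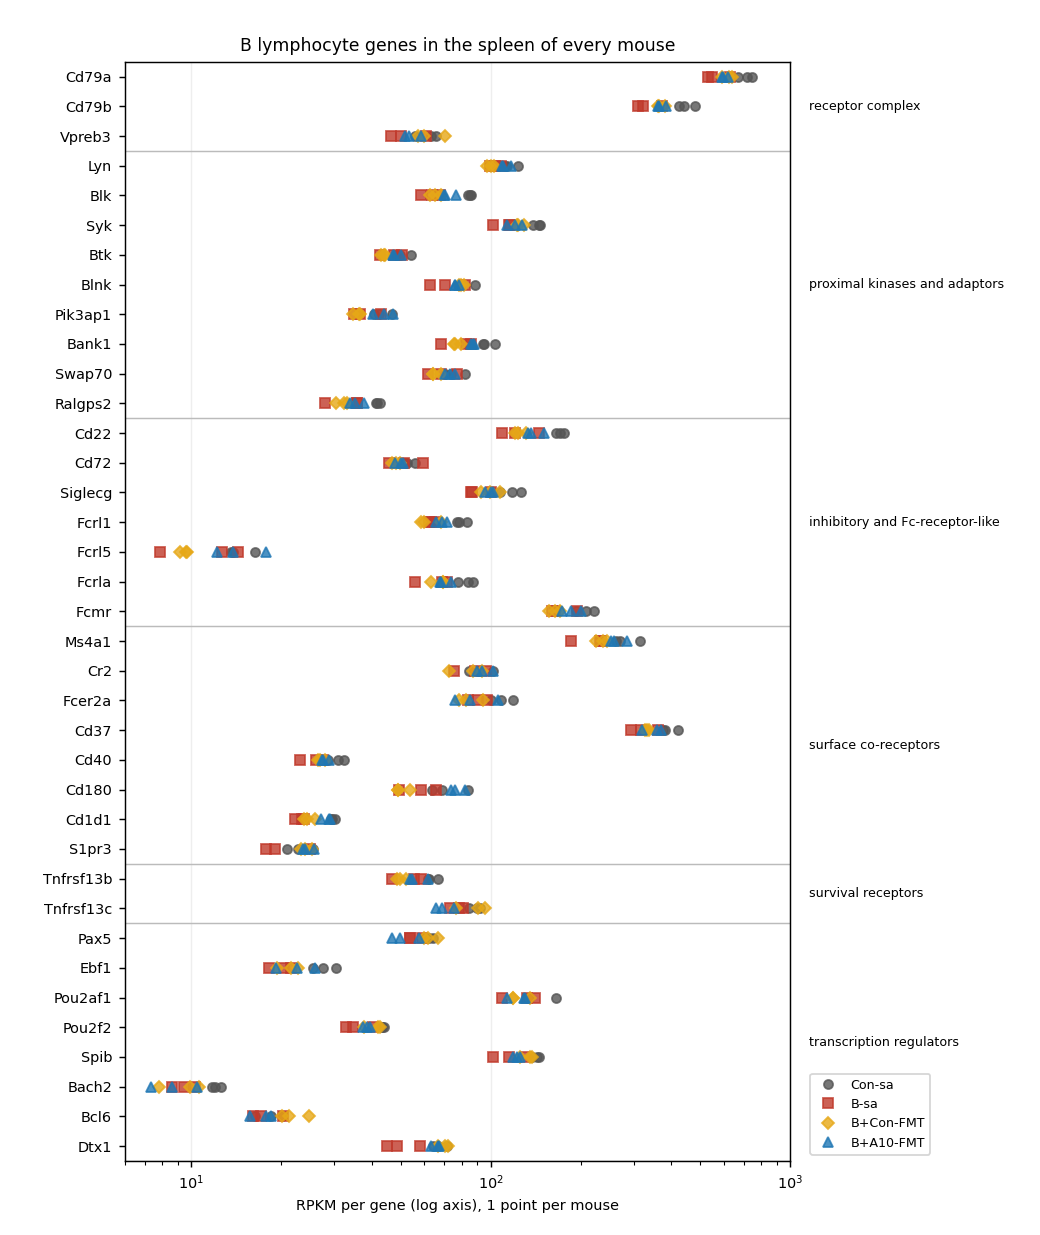
RPKM of each of the 37 members on a log axis, with 1 point per mouse and 3 mice per group, ordered by role. Cd79a was the most abundant member and Bach2 and Fcrl5 were among the lowest, and the Con-sa points lie furthest to the right for most members.

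Compared to the control, B cell transcripts were lower after busulfan, with calls in all roles but the survival receptors. All 37 members had an estimate below 0 in B-sa versus Con-sa, and 19 were called lower and 0 higher. Over all genes tested, 9.78% were called lower and 4.73% higher. The median log2 fold change of the members was -0.28, against -0.044 over all genes. The mean log2(RPKM + 1) over the members was 6.30 ± 0.060 in Con-sa mice, 6.03 ± 0.14 in B-sa mice, 6.08 ± 0.040 in B+Con-FMT mice and 6.14 ± 0.052 in B+A10-FMT mice (SD, n = 3). The decreases were modest, with log2 fold changes from -0.46 to -0.039. The count fell to 8 without B-sa mouse 2 and to 9 without Con-sa mouse 2, and rose to 26 without B-sa mouse 1. Of 15 alternative analyses, the call was lost in 10 for Fcmr, 9 for Cd37 and 8 for Pou2f2 and for Spib. It was lost in 1 for each of Blk, Cd22, Cd79a, Cd79b, Cd1d1, Dtx1, Fcrl1 and Syk.

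**Figure D2:**
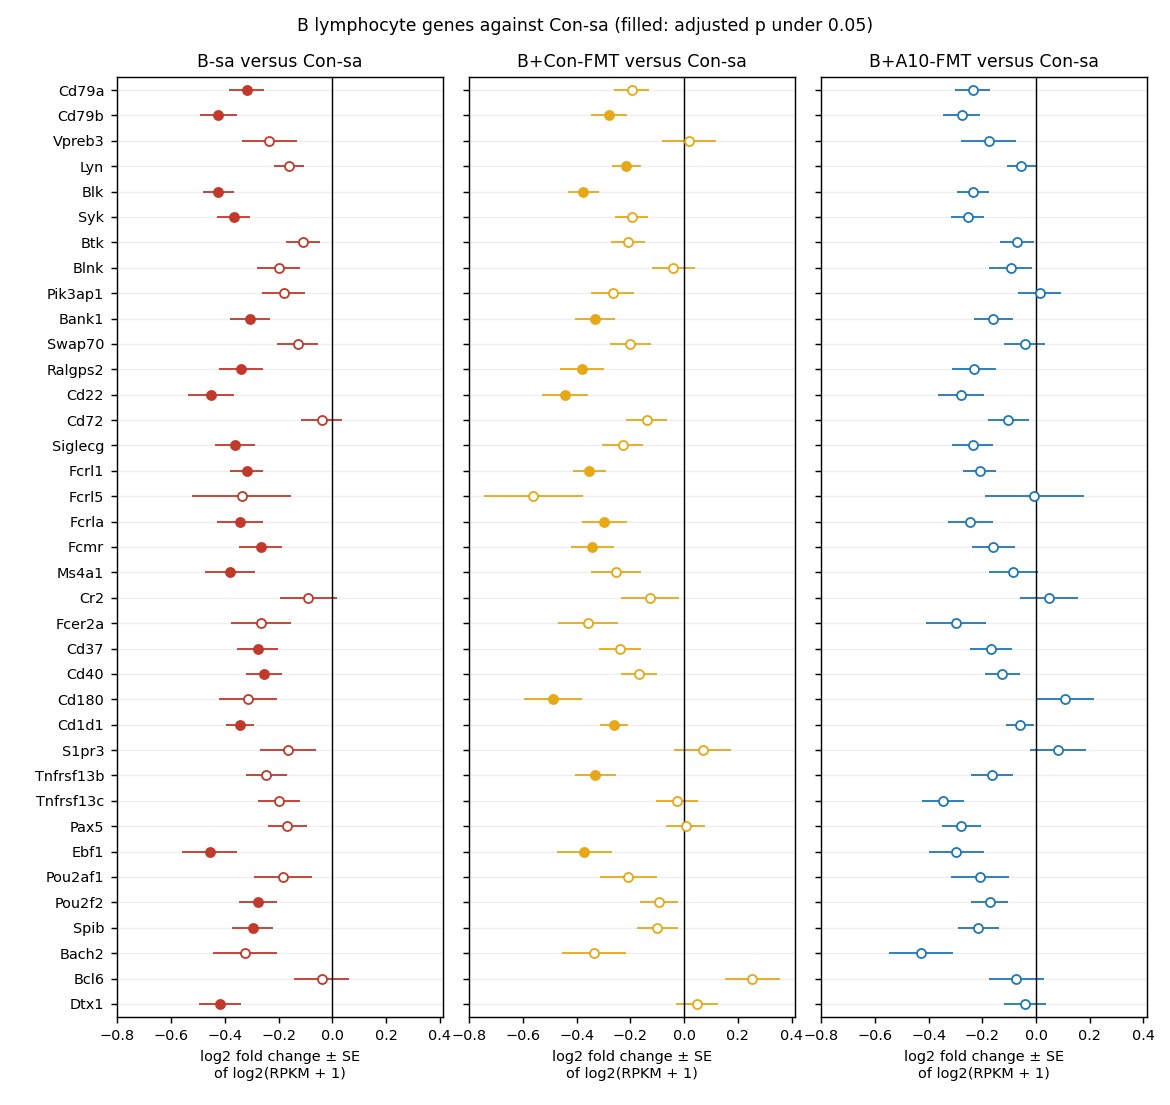
Log2 fold change of each member against Con-sa with its standard error, in 1 panel for each busulfan group (3 mice against 3). Filled points were called at an adjusted p under 0.05, which was 19 members in B-sa mice, 13 in B+Con-FMT mice and 0 in B+A10-FMT.

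Both signalling chains of the receptor fell after busulfan. Cd79a encodes Igα, and its RPKM was 669, 714 and 745 in the Con-sa mice, 630.1, 529.5 and 549 in B-sa mice, 624, 639.6 and 593 in B+Con-FMT mice and 592, 596 and 618 in B+A10-FMT. Every busulfan-treated mouse was below every Con-sa mouse, and the difference was called in B-sa (log2 fold change -0.32 ± 0.065 SE, adjusted p = 0.0101). Cd79b encodes Igβ, and its RPKM was 425, 479 and 442 in the Con-sa mice, 374, 309 and 322 in B-sa mice, 364, 381 and 363 in B+Con-FMT mice and 365, 362 and 384 in B+A10-FMT. Con-sa again stood above the other groups without overlap. The decrease was called in B-sa (log2 fold change -0.42 ± 0.068 SE, adjusted p = 0.00512) and in B+Con-FMT (log2 fold change -0.28 ± 0.068 SE, adjusted p = 0.0276), whereas in B+A10-FMT the estimate was similar in size but not called (log2 fold change -0.28 ± 0.068 SE, adjusted p = 0.13). Vpreb3, a surrogate light chain-like protein, overlapped between B-sa and Con-sa and was not called (adjusted p = 0.14).

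Among the kinases and adaptors that act next to the receptor, 4 of 9 were called lower in B-sa. Blk, a Src-family kinase of B cells, had an RPKM of 84.2, 85.8 and 85.1 in the Con-sa mice, 67.5, 58.6 and 63.5 in B-sa mice, 65.0, 68.2 and 62.8 in B+Con-FMT mice and 69.9, 70.4 and 76.3 in B+A10-FMT. All 9 busulfan-treated mice lay below the Con-sa mice, which were close to each other. Blk was lower in B-sa (log2 fold change -0.42 ± 0.059 SE, adjusted p = 0.00296) and in B+Con-FMT (log2 fold change -0.38 ± 0.059 SE, adjusted p = 0.00437). Syk, the kinase that docks on the phosphorylated receptor chains, had an RPKM of 145, 146 and 139 in the Con-sa mice, 116, 102 and 115 in B-sa mice, 123, 129 and 122 in B+Con-FMT mice and 120.3, 113 and 127 in B+A10-FMT. Its decrease was called in B-sa (log2 fold change -0.37 ± 0.061 SE, adjusted p = 0.0055), and B+Con-FMT lay above B-sa without overlap, which was not called (log2 fold change 0.17 ± 0.061 SE, adjusted p = 0.176).

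Bank1, an adaptor of calcium signalling, had an RPKM of 94.6, 103 and 94.0 in the Con-sa mice, 85.7, 68.2 and 82.5 in B-sa mice, 76.1, 79.7 and 75.5 in B+Con-FMT mice and 87.8, 86.0 and 87.2 in B+A10-FMT. It was called lower in B-sa (log2 fold change -0.31 ± 0.074 SE, adjusted p = 0.0193) and in B+Con-FMT (log2 fold change -0.33 ± 0.074 SE, adjusted p = 0.0195). Ralgps2, an exchange factor for Ral GTPases, had an RPKM of 41.7, 42.7 and 41.5 in the Con-sa mice, 35.8, 27.9 and 35.7 in B-sa mice, 33.0, 32.4 and 30.5 in B+Con-FMT mice and 35.3, 33.9 and 37.8 in B+A10-FMT. It showed the same pattern, with a decrease in B-sa (log2 fold change -0.34 ± 0.082 SE, adjusted p = 0.0193) and in B+Con-FMT (log2 fold change -0.38 ± 0.082 SE, adjusted p = 0.0167). Lyn, a Src-family kinase with activating and inhibitory roles, was called lower in B+Con-FMT (log2 fold change -0.22 ± 0.055 SE, adjusted p = 0.0323) but not in B-sa (adjusted p = 0.0651). Btk, Blnk and Swap70 were called in none of the 6 comparisons.

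Of the inhibitory and Fc-receptor-like members, 5 of 7 were called lower in B-sa. Cd22 encodes a sialic acid-binding brake on the receptor, and its RPKM was 165, 175 and 170.2 in the Con-sa mice, 145, 109 and 120.5 in B-sa mice, 120.0, 131 and 123 in B+Con-FMT mice and 133, 136 and 151 in B+A10-FMT. Each busulfan group lay wholly below Con-sa. Cd22 was called lower in B-sa (log2 fold change -0.45 ± 0.086 SE, adjusted p = 0.00804) and in B+Con-FMT (log2 fold change -0.45 ± 0.086 SE, adjusted p = 0.0106), and its estimate in B+A10-FMT was not called (log2 fold change -0.28 ± 0.086 SE, adjusted p = 0.212). Siglecg, a related inhibitory lectin, had an RPKM of 108, 118 and 126 in the Con-sa mice, 99.8, 86.7 and 86.2 in B-sa mice, 107, 92.7 and 99.2 in B+Con-FMT mice and 102, 95.8 and 99.9 in B+A10-FMT. The Con-sa mice stood above all others. Siglecg was called lower in B-sa (log2 fold change -0.36 ± 0.075 SE, adjusted p = 0.0108), and against B-sa it was called in neither B+Con-FMT nor B+A10-FMT (adjusted p = 0.374 and 0.317).

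Fcrl1, an activating Fc receptor-like protein, had an RPKM of 78.4, 83.4 and 76.8 in the Con-sa mice, 65.2, 63.3 and 62.1 in B-sa mice, 68.0, 58.5 and 60.0 in B+Con-FMT mice and 65.6, 69.0 and 71.4 in B+A10-FMT. It fell in B-sa (log2 fold change -0.32 ± 0.061 SE, adjusted p = 0.00832) and in B+Con-FMT (log2 fold change -0.35 ± 0.061 SE, adjusted p = 0.00696). Fcrla, an intracellular relative, had an RPKM of 77.5, 87.3 and 84.0 in the Con-sa mice, 71.7, 55.8 and 69.0 in B-sa mice, 69.3, 69.5 and 63.2 in B+Con-FMT mice and 68.2, 67.8 and 73.5 in B+A10-FMT, and it was called lower in the same pair of groups (adjusted p = 0.0212 and 0.0469). Fcmr, the Fc receptor for IgM, had an RPKM of 193, 221 and 208 in the Con-sa mice, 194, 160.3 and 163 in B-sa mice, 169.8, 164 and 156 in B+Con-FMT mice and 173, 185 and 199 in B+A10-FMT. One B-sa mouse reached the Con-sa range, and Fcmr was called lower in B-sa (log2 fold change -0.27 ± 0.080 SE, adjusted p = 0.0433) and in B+Con-FMT (log2 fold change -0.34 ± 0.080 SE, adjusted p = 0.0235). Cd72, an inhibitory lectin, was among the members with the smallest estimates in B-sa (log2 fold change -0.039, adjusted p = 0.763).

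Of the surface co-receptors, Ms4a1, Cd37, Cd40 and Cd1d1 were called lower in B-sa. Ms4a1 encodes CD20, and its RPKM was 269, 314 and 261 in the Con-sa mice, 232, 185 and 233 in B-sa mice, 236, 245 and 225 in B+Con-FMT mice and 257, 285 and 253 in B+A10-FMT. Ms4a1 fell in B-sa (log2 fold change -0.38 ± 0.093 SE, adjusted p = 0.0214). The B+A10-FMT mice lay above the B-sa mice without overlap, which missed the threshold (log2 fold change 0.30 ± 0.093 SE, adjusted p = 0.0789). Cd37, a tetraspanin, and Cd40, the receptor for T cell help, fell by 17.4% and 16.5% in mean RPKM (adjusted p = 0.0324 and 0.0259).

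Cr2 and Fcer2a are the pair of transcripts most used to separate marginal zone from follicular B cells, although follicular dendritic cells also express both. Cr2 encodes the complement receptors CD21 and CD35, and its RPKM was 90.3, 102 and 84.4 in the Con-sa mice, 96.4, 75.3 and 88.4 in B-sa mice, 93.7, 72.4 and 87.4 in B+Con-FMT mice and 90.2, 102 and 93.4 in B+A10-FMT. The groups overlapped throughout, and Cr2 was called in no comparison. Its sum rested largely on predicted transcripts, and its single curated transcript had an opposite estimate in B-sa relative to Con-sa (log2 fold change 0.53, adjusted p = 0.257). Fcer2a encodes the low-affinity IgE receptor CD23, and its RPKM was 99.95, 108 and 119 in the Con-sa mice, 97.1, 84.0 and 90.3 in B-sa mice, 94.1, 82.3 and 78.3 in B+Con-FMT mice and 85.5, 76.2 and 106 in B+A10-FMT. The B-sa mice lay below the Con-sa mice, but the difference was not called (log2 fold change -0.27 ± 0.11 SE, adjusted p = 0.124). The summed RPKM of the 7 follicular dendritic cell markers was 1028 to 1103 in Con-sa mice, 1017 to 1234 in B-sa mice, 1112 to 1198 in B+Con-FMT mice and 1102 to 1199 in B+A10-FMT, none of the 7 was at 0, and their part in these values was not tested.

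Survival receptors were not called in B-sa. Tnfrsf13b encodes TACI, and it was called lower in B+Con-FMT (log2 fold change -0.33 ± 0.077 SE, adjusted p = 0.0235). In B-sa it lay below Con-sa without overlap and just missed the threshold (log2 fold change -0.25 ± 0.077 SE, adjusted p = 0.0507). Tnfrsf13c encodes the receptor for BAFF, on which mature B cells depend, and its RPKM was 84.7, 90.0 and 91.9 in the Con-sa mice, 80.7, 73.1 and 78.2 in B-sa mice, 90.4, 95.7 and 76.8 in B+Con-FMT mice and 68.7, 65.7 and 75.1 in B+A10-FMT. The B+A10-FMT mice lay below the Con-sa mice without overlap, which was not called (log2 fold change -0.34 ± 0.078 SE, adjusted p = 0.0904).

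Among the 8 transcription regulators, Ebf1, Pou2f2, Spib and Dtx1 were called lower in B-sa. Ebf1, which with Pax5 sets and keeps B cell fate, had an RPKM of 27.6, 30.4 and 25.5 in the Con-sa mice, 20.4, 18.1 and 21.5 in B-sa mice, 21.6, 22.8 and 19.4 in B+Con-FMT mice and 19.2, 22.5 and 25.9 in B+A10-FMT. Ebf1 carried the largest estimate of the module in B-sa (log2 fold change -0.46 ± 0.10 SE, adjusted p = 0.0148) and was also called lower in B+Con-FMT (log2 fold change -0.37 ± 0.10 SE, adjusted p = 0.0435). Pax5 had an RPKM of 60.9, 64.0 and 62.3 in the Con-sa mice, 58.8, 53.9 and 53.6 in B-sa mice, 66.7, 59.7 and 61.7 in B+Con-FMT mice and 46.9, 49.7 and 57.8 in B+A10-FMT. The B-sa mice were below the Con-sa mice without overlap, and the difference was not called (log2 fold change -0.17 ± 0.073 SE, adjusted p = 0.134). The curated transcript of Pax5 overlapped between them and had an estimate above 0. It was at 24.4, 24.5 and 30.75 RPKM in Con-sa mice and 30.95, 31.3 and 26.3 in B-sa mice. Bcl6, the repressor that directs the germinal centre programme, had an RPKM of 18.4, 20.2 and 16.4 in the Con-sa mice, 20.3, 16.0 and 17.1 in B-sa mice, 21.3, 24.7 and 20.1 in B+Con-FMT mice and 18.5, 15.7 and 17.8 in B+A10-FMT. Bcl6 overlapped between Con-sa and B-sa (log2 fold change -0.039 ± 0.10 SE, adjusted p = 0.824). Bach2, a repressor of plasma cell differentiation, had an RPKM of 11.7, 12.5 and 12.02 in the Con-sa mice, 9.49, 8.62 and 10.3 in B-sa mice, 9.87, 10.7 and 7.8 in B+Con-FMT mice and 7.35, 8.6 and 10.4 in B+A10-FMT. All 9 busulfan-treated mice were below the Con-sa mice, and Bach2 was called in no comparison (adjusted p = 0.0816 in B-sa mice and 0.154 in B+A10-FMT, each against Con-sa). Pou2af1, a coactivator of octamer-binding factors, was also called in none.

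Short matches to the motifs of these regulators were looked for in RefSeq windows of 300 bases (250 before and 50 after the gene start, GRCm38.p6), on both strands. The motifs were the octamer ATGCAAAT of the POU2 factors, GAGGAAGT of the Ets family, to which SPIB belongs, and the EBF1-type TCCCNNGGG. Windows were given for 31 of the 37 members, without Blk, Cd1d1, Cd40, Cd79b, Lyn and Ms4a1. The octamer was found in 2 of them (6.45%, against 1.62% of the 10124 tested genes with a window), the Ets letters in 3 (9.68% against 4.0%) and the EBF1-type letters in 2 (6.45% against 9.29%). The 150 bases before the start are shown for a gene of each motif, with the match in capitals, because these are genes of the module whose level can be set beside that of the factor. Vpreb3 and Blnk carry the octamer (first base at -45 and -130), Cd37 the Ets letters (-25) and Cd22 a pair of overlapping EBF1-type matches (-49 and -48).
Vpreb3, chr10:75948150-75948299, plus strand: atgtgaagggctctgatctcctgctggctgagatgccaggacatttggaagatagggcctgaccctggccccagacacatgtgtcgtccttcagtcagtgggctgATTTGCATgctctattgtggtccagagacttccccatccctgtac
Blnk, chr19:40994222-40994371, minus strand: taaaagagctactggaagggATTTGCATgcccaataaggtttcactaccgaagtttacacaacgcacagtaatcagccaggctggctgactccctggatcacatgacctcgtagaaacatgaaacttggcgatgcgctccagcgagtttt
Cd37, chr7:45238840-45238989, minus strand: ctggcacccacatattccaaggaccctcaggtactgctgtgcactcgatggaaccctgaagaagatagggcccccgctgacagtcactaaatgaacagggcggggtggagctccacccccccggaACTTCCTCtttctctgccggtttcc
Cd22, chr7:30879029-30879178, minus strand: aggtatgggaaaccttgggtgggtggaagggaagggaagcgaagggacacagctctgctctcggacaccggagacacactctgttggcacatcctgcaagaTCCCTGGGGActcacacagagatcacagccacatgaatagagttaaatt
Of the 3 members with the Ets letters, Cd37 and Fcrl1 were called lower in B-sa, as was Spib, and Cd72 was not. Cd22 and Dtx1, the other member with the EBF1-type letters (-5, across the start), were called lower, as was Ebf1, and Blnk and Vpreb3 were not called while Pou2f2 was. Over the module, 19 of the 37 members were called lower in B-sa, and a link between the letters and the calls was not tested. A match describes these letters and does not show that a factor binds there.

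Further genes of the receptor pathway were looked at beside the module. Of 28 further genes of the pathway, 10 were called lower in B-sa (9.78% of all genes) and 0 higher, and all 28 estimates were below 0 (median -0.18). Malt1, which is part of a complex that activates NF-κB, had an RPKM of 41.7, 45.9 and 41.9 in the Con-sa mice, 32.4, 26.7 and 34.2 in B-sa mice, 38.8, 37.2 and 33.6 in B+Con-FMT mice and 35.6, 34.7 and 38.9 in B+A10-FMT and fell in B-sa (log2 fold change -0.47 ± 0.086 SE, adjusted p = 0.0075). Plcg2, the phospholipase that releases calcium, was not called (log2 fold change -0.24 ± 0.088 SE, adjusted p = 0.0834). In the MHC class II list, 5 of 10 were called lower, including Cd74, H2-Ab1 and the class II regulator Ciita. In the follicular list, 5 of 10 were called lower. They included Cd55, Zfp318, Klf2 and Cxcr5, and Cxcr5, the receptor that guides B cells into follicles, had a log2 fold change of -0.31 (adjusted p = 0.00747).

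Neutrophil, T cell and erythroid transcripts were set beside these decreases. Over all genes, 4.73% were called higher and 9.78% lower in B-sa. The summed RPKM of 8 neutrophil markers was 2077 to 2152 in Con-sa mice and 3692 to 6030 in B-sa, and 3 of the 8 were called higher. The summed RPKM of 16 T cell markers was 414 to 485 in Con-sa mice and 403 to 509 in B-sa, with 1 called lower (Cd8b1) and 0 higher. None of these markers was at 0 in all mice. Of 9 erythroid markers tested, Hba-a1 and Klf1 were called higher in B-sa and Hbb-bs and Hbb-bt lower. The part of these markers, and of whatever sets the mice apart in Hbb-bs, in the decrease of the B cell genes was not tested. In the early B lineage list, 7 of 11 genes were tested, and Myb was called higher and Il7r lower in B-sa. Rag1, the recombinase of B cell precursors, was at 0.09 to 0.40 RPKM in all mice and below the filter.

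FMT from control donors changed few members relative to B-sa. With B-sa as the reference, 1 of 37 members was called higher and 0 lower, with 0.623% of all genes higher and 0.221% lower, and the median of the members was 0.046. At an unadjusted p under 0.05, 9 members would have passed, as would 18.4% of all genes in either direction. Dtx1 was the member called. It encodes Deltex 1, a target and modulator of Notch signalling that is high in marginal zone B cells, and its RPKM was 64.3, 66.8 and 71.6 in the Con-sa mice, 57.9, 45.1 and 48.5 in B-sa mice, 72.1, 70.5 and 66.8 in B+Con-FMT mice and 66.6, 67.0 and 63.1 in B+A10-FMT. The B-sa mice were below every mouse of the other 3 groups. Dtx1 fell in B-sa (log2 fold change -0.42 ± 0.078 SE, adjusted p = 0.00764), and it was higher than in B-sa in both B+Con-FMT (log2 fold change 0.47 ± 0.078 SE, adjusted p = 0.0167) and B+A10-FMT (log2 fold change 0.38 ± 0.078 SE, adjusted p = 0.0204). These comparisons share the B-sa mice, and neither increase was called without B-sa mouse 2 (adjusted p = 0.0723 and 0.0843). Against Con-sa, 13 members were called lower in B+Con-FMT mice and 0 higher, with 6.57% of all genes lower and 2.30% higher, and the median of the members was -0.23. Of the 13, Cd180, Lyn and Tnfrsf13b were not among the 19 called in B-sa. The count was 5, 4 and 9 without Con-sa mouse 1, 2 or 3, and 5, 7 and 5 without B+Con-FMT mouse 1, 2 or 3, and 23 with equal totals outside the globin genes. Of 15 alternative analyses, the call was lost in 11 for Fcrla and in 9 for each of Cd79b, Ebf1 and Lyn. It was lost in 1 for Blk and for Cd22.

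B+A10-FMT spleens stood between B-sa and Con-sa for most members. Against B-sa, 3 of 37 were called higher and 0 lower, beside 4.0% and 1.27% of all genes, and 30 estimates were above 0 (median 0.11, against 0.046 over all genes). The 3 were Cd180, Cd1d1 and Dtx1. The count was 0 without B-sa mouse 2 (adjusted p = 0.15, 0.0519 and 0.0843) and 0 without B+A10-FMT mouse 2, 1 without B+A10-FMT mouse 1, and 8 without B-sa mouse 1. Against Con-sa, 0 members were called in either direction, beside 0.118% of all genes higher and 0.292% lower, although 33 of the 37 estimates were below 0 (median -0.17, against 0.0050 over all genes). At an unadjusted p under 0.05, 17 members were below Con-sa in this comparison, beside 6.38% of all genes. The absence of calls therefore does not show that the B+A10-FMT level equalled the Con-sa level.

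The 2 transfer groups were also compared with each other. With B+A10-FMT set against B+Con-FMT, 3 of 37 members were called higher and 2 lower, beside 7.58% and 2.78% of all genes. The higher count was thus near the share of all genes. The median log2 fold change of the members was 0.059, against 0.046 over all genes. The higher members were Cd180, Cd1d1 and Pik3ap1, and the lower were Pax5 and Tnfrsf13c. All 12 macrophage and monocyte markers also had estimates above 0 (median 0.31), and 4 were called higher. Their part in the 3 higher members was not tested. Of 15 alternative analyses, the call was lost in 0 for Cd180, 9 for Cd1d1, 10 for Pik3ap1, 7 for Pax5 and 5 for Tnfrsf13c. The split was 1 higher and 3 lower with median-of-ratios scaling, and 8 higher and 2 lower with equal totals outside the globin genes. When every mouse was set to the same mean over the members, Cd180 was higher and Bcl6, Pax5 and Tnfrsf13c were lower, beside 0.584% of all genes higher and 0.844% lower. With that scaling, Dtx1 was the only member called in B+Con-FMT versus B-sa, beside 0.189% of all genes higher and 0.0474% lower.

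**Figure D3:**
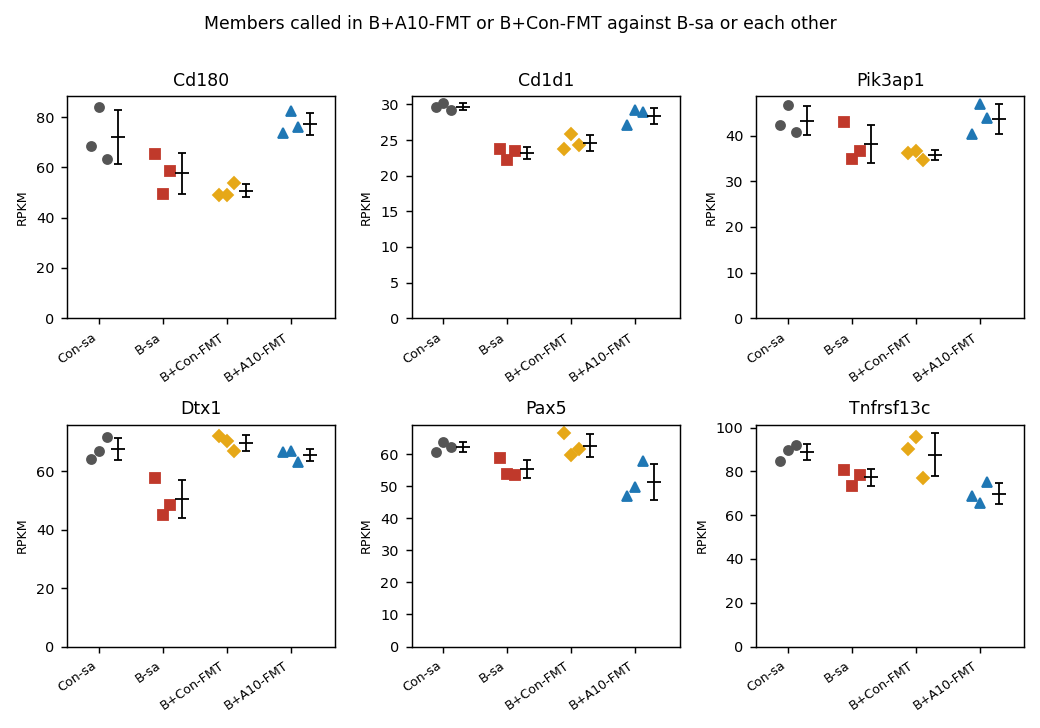
RPKM by mouse for the 6 members called between busulfan groups, with each group's mean and SD (n = 3) in black and axes starting at 0. The B+A10-FMT points of Cd180 lie from 73.5 to 82.3, above all points of B-sa and B+Con-FMT, and those of Pax5 and Tnfrsf13c lie below all points of B+Con-FMT.

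Cd180 encodes RP105, a Toll-like receptor relative that activates B cells and is abundant on marginal zone and follicular cells. Its RPKM was 68.6, 83.9 and 63.5 in the Con-sa mice, 65.4, 49.2 and 58.4 in B-sa mice, 49.2, 49.2 and 53.9 in B+Con-FMT mice and 73.5, 82.3 and 76.1 in B+A10-FMT. B+A10-FMT overlapped Con-sa and lay above both other busulfan groups. The increase was called against B+Con-FMT (log2 fold change 0.60 ± 0.11 SE, adjusted p = 0.00866) and against B-sa (log2 fold change 0.42 ± 0.11 SE, adjusted p = 0.0436), the latter being lost in most of the alternative analyses. Both listed transcripts of Cd180 were higher in each B+A10-FMT mouse than in each B+Con-FMT mouse. Cd180 was also called lower in B+Con-FMT than in Con-sa (log2 fold change -0.49 ± 0.11 SE, adjusted p = 0.02).

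Cd1d1 presents lipids to natural killer T cells and is high on marginal zone B cells. Its RPKM was 29.6, 30.2 and 29.2 in the Con-sa mice, 23.7, 22.3 and 23.5 in B-sa mice, 23.7, 25.8 and 24.3 in B+Con-FMT mice and 27.1, 29.1 and 28.9 in B+A10-FMT. Con-sa and B+A10-FMT stood above B-sa and B+Con-FMT without overlap. Cd1d1 fell in B-sa (log2 fold change -0.34 ± 0.051 SE, adjusted p = 0.00376) and in B+Con-FMT (log2 fold change -0.26 ± 0.051 SE, adjusted p = 0.0116), and it was higher in B+A10-FMT spleens than in those of B-sa (log2 fold change 0.28 ± 0.051 SE, adjusted p = 0.012) and in B+Con-FMT (log2 fold change 0.20 ± 0.051 SE, adjusted p = 0.0303). Pik3ap1 encodes the adaptor BCAP, which links the receptor to PI3K. Its RPKM was 42.4, 46.8 and 40.8 in the Con-sa mice, 43.0, 34.9 and 36.7 in B-sa mice, 36.3, 36.6 and 34.6 in B+Con-FMT mice and 40.4, 47.0 and 44.0 in B+A10-FMT, and it was higher in B+A10-FMT spleens than in those of B+Con-FMT (log2 fold change 0.28 ± 0.080 SE, adjusted p = 0.0445).

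Pax5 and Tnfrsf13c went the other way. Their per-mouse values given above place every B+A10-FMT mouse below every B+Con-FMT mouse, for Pax5 (log2 fold change -0.28 ± 0.073 SE, adjusted p = 0.0302) and for Tnfrsf13c (log2 fold change -0.32 ± 0.078 SE, adjusted p = 0.0259). The difference in Pax5 lay in its curated transcript, at 42.1, 31.1 and 38.4 RPKM in B+Con-FMT mice and 19.5, 15.9 and 24.1 in B+A10-FMT. The 2 predicted transcripts together were at 24.6, 28.6 and 23.3 and 27.4, 33.8 and 33.6, which is the opposite order. For Tnfrsf13c the curated transcript was at 73.0, 76.85 and 58.5 RPKM in B+Con-FMT mice and 53.3, 46.5 and 55.5 in B+A10-FMT. Its predicted transcript overlapped, at 17.4, 18.9 and 18.3 in B+Con-FMT mice and 15.3, 19.2 and 19.5 in B+A10-FMT. How reads were shared between overlapping transcripts is not given in the sources used here, so these splits are uncertain. Bcl6 was lower in B+A10-FMT without overlap and missed the threshold (log2 fold change -0.33 ± 0.10 SE, adjusted p = 0.0593).

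The module was then divided by B cell subset. The 6 marginal zone members (Cr2, Cd1d1, S1pr3, Dtx1, Fcrl5 and Tnfrsf13b) had a mean log2(RPKM + 1) of 5.35 ± 0.075 in Con-sa mice, 5.09 ± 0.20 in B-sa mice, 5.16 ± 0.029 in B+Con-FMT mice and 5.33 ± 0.061 in B+A10-FMT mice (SD, n = 3). The 6 follicular members (Fcer2a, Bach2, Fcmr, Cd22, Cd72 and Tnfrsf13c) had a mean of 6.31 ± 0.059 in Con-sa mice, 6.05 ± 0.13 in B-sa mice, 6.04 ± 0.094 in B+Con-FMT mice and 6.04 ± 0.12 in B+A10-FMT mice (SD, n = 3). With curated transcripts only, where 5 of the 6 marginal zone members were left, B-sa minus Con-sa was -0.11 in place of -0.27, B+A10-FMT minus B-sa was 0.14 in place of 0.24, and B-sa mouse 1 (4.74) lay above all Con-sa mice (4.57 to 4.69). In B+A10-FMT the marginal zone mean lay near that of Con-sa, while the mean of the follicular members lay near that of B-sa. The 10 follicular genes outside the module did not share the second pattern in their mean. Their mean was 5.72 ± 0.043 in Con-sa mice, 5.41 ± 0.14 in B-sa mice, 5.52 ± 0.088 in B+Con-FMT mice and 5.57 ± 0.078 in B+A10-FMT mice (SD, n = 3), 9 of the 10 estimates in B+A10-FMT were above 0 against B-sa, and Cd55 and Cxcr5 were called higher (adjusted p = 0.00949 and 0.0289). By mouse, B-sa (5.32 to 5.565) and B+A10-FMT (5.51 to 5.66) overlapped. Of 15 alternative analyses, the call was lost in 8 for Cxcr5 and 1 for Cd55. The marginal zone mean minus the follicular mean was -0.92, -0.92 and -1.03 in the Con-sa mice, -0.91, -1.05 and -0.95 in B-sa mice, -0.89, -0.96 and -0.78 in B+Con-FMT mice and -0.70, -0.58 and -0.86 in B+A10-FMT. On summed RPKM, B+A10-FMT thus lay above Con-sa and B-sa without overlap in this difference and overlapped B+Con-FMT. With curated transcripts only it overlapped B-sa. There, B-sa mouse 1 (marginal zone 4.74, follicular 5.45) lay above B+A10-FMT mouse 3 (4.65 and 5.43) in the difference. The difference is given as a description without a test, since the members were chosen with results of these data known. The 4 germinal centre members (Bcl6, Pou2af1, Swap70 and Spib) had a mean of 6.21 ± 0.11 in Con-sa mice, 6.05 ± 0.17 in B-sa mice, 6.15 ± 0.070 in B+Con-FMT mice and 6.08 ± 0.047 in B+A10-FMT mice (SD, n = 3), and it fell into overlapping ranges in the 3 busulfan groups.

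S1pr3 and Fcrl5 complete the marginal zone members. S1pr3, a sphingosine-1-phosphate receptor that holds cells in the marginal zone, had an RPKM of 22.8, 25.4 and 20.9 in the Con-sa mice, 24.99, 17.7 and 19.1 in B-sa mice, 25.3, 23.2 and 23.9 in B+Con-FMT mice and 25.7, 23.9 and 23.5 in B+A10-FMT. Its groups overlapped and it was called in no comparison. Fcrl5 had an RPKM of 13.8, 16.3 and 13.6 in the Con-sa mice, 14.3, 7.85 and 12.7 in B-sa mice, 9.69, 9.6 and 9.2 in B+Con-FMT mice and 12.2, 17.8 and 13.8 in B+A10-FMT. The B+A10-FMT mice lay above the B+Con-FMT mice without overlap, which was not called (log2 fold change 0.56 ± 0.18 SE, adjusted p = 0.0771).

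**Figure D4:**
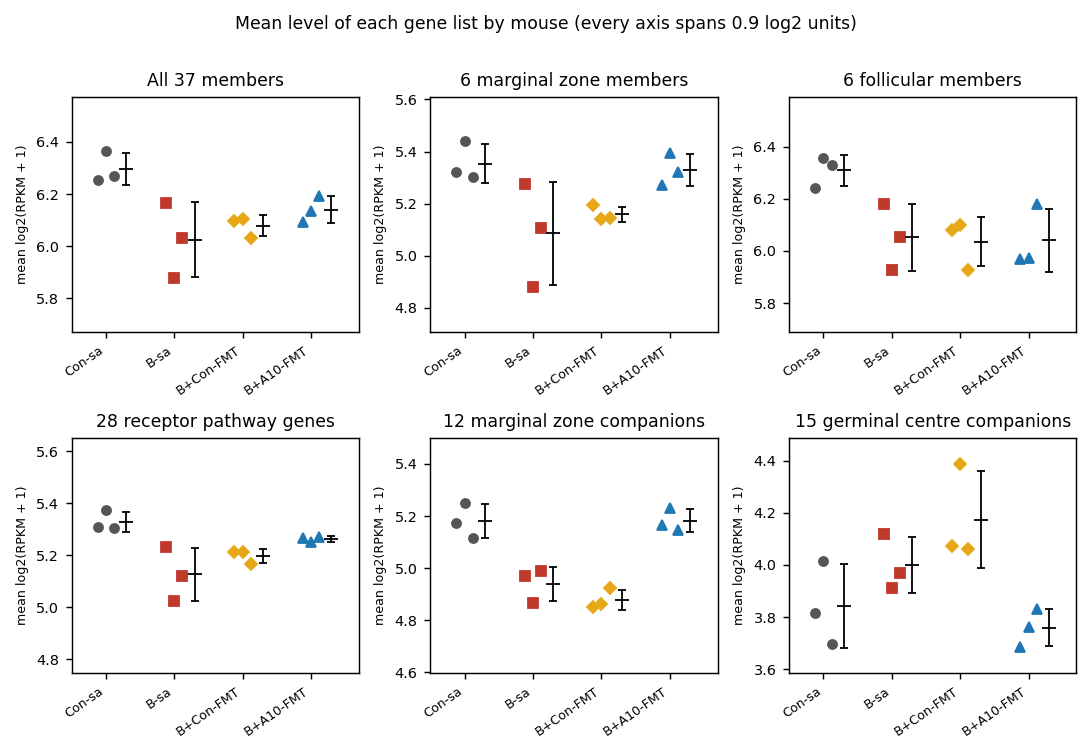
Mean log2(RPKM + 1) of 6 gene lists by mouse, with each group's mean and SD (n = 3) in black, on axes that each span 0.9 log2 units. The marginal zone lists of B+A10-FMT overlap Con-sa, the follicular members of B+A10-FMT lie below Con-sa, and the germinal centre companions are highest in B+Con-FMT.

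A marginal zone list of 12 genes outside the module was also examined. Relative to Con-sa, 6 were called lower in B-sa (9.78% of all genes) and 7 in B+Con-FMT (6.57%), and 0 were called higher in either. In B+A10-FMT, 5 were called higher than in B-sa (4.0% of all genes) and 7 higher than in B+Con-FMT (7.58%), and 0 were called lower. Against Con-sa, 0 were called in B+A10-FMT (median 0.0085). Notch2, the receptor that marginal zone B cells require, had an RPKM of 21.0, 20.2 and 19.5 in the Con-sa mice, 14.7, 13.2 and 15.5 in B-sa mice, 15.2, 15.4 and 15.1 in B+Con-FMT mice and 19.4, 18.3 and 18.8 in B+A10-FMT. B-sa and B+Con-FMT lay below both other groups without overlap. Notch2 fell in B-sa (log2 fold change -0.46 ± 0.060 SE, adjusted p = 0.0027) and was higher in B+A10-FMT spleens than in those of B-sa (log2 fold change 0.36 ± 0.060 SE, adjusted p = 0.00889) and in B+Con-FMT (log2 fold change 0.29 ± 0.060 SE, adjusted p = 0.0131).

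Ackr3, a chemokine-scavenging receptor expressed by marginal zone B cells, had an RPKM of 19.0, 21.1 and 16.3 in the Con-sa mice, 10.6, 12.03 and 14.1 in B-sa mice, 11.2, 10.04 and 10.4 in B+Con-FMT mice and 17.3, 20.04 and 18.1 in B+A10-FMT. It showed the largest change of this list between the transfer groups (log2 fold change 0.75 ± 0.10 SE, adjusted p = 0.002). Asb2 had an RPKM of 19.3, 22.3 and 20.7 in the Con-sa mice, 14.9, 15.2 and 14.9 in B-sa mice, 15.1, 17.6 and 17.7 in B+Con-FMT mice and 24.9, 24.9 and 22.2 in B+A10-FMT, and it was higher in B+A10-FMT spleens than in those of B-sa (log2 fold change 0.64 ± 0.072 SE, adjusted p = 0.0013) and in B+Con-FMT (log2 fold change 0.49 ± 0.072 SE, adjusted p = 0.00303). Dll1, the Notch ligand of the splenic stroma, had an RPKM of 13.2, 12.5 and 13.2 in the Con-sa mice, 11.2, 10.3 and 10.7 in B-sa mice, 10.3, 11.1 and 11.8 in B+Con-FMT mice and 12.6, 13.8 and 14.4 in B+A10-FMT and was called higher in B+A10-FMT spleens than in those of B-sa (log2 fold change 0.32, adjusted p = 0.0216) and in B+Con-FMT (0.27, adjusted p = 0.0249). S1pr1, which draws cells out of follicles and is expressed by many lymphocytes, fell in B-sa (log2 fold change -0.49 ± 0.079 SE, adjusted p = 0.00512) and was higher in B+A10-FMT spleens than in those of B-sa (log2 fold change 0.54 ± 0.079 SE, adjusted p = 0.00571). Cd9 and Mzb1 did not follow the others, and neither was called in any comparison. Cd9, a tetraspanin of marginal zone B cells and of other blood cells, had an RPKM of 76.96, 79.3 and 81.1 in the Con-sa mice, 88.2, 96.9 and 95.5 in B-sa mice, 88.0, 72.4 and 82.2 in B+Con-FMT mice and 97.5, 98.3 and 75.8 in B+A10-FMT, with B-sa above Con-sa without overlap (log2 fold change 0.24 ± 0.094 SE, adjusted p = 0.107). Mzb1, which is also abundant in plasma cells, had an RPKM of 204, 263 and 179 in the Con-sa mice, 248, 188 and 262 in B-sa mice, 176, 195 and 189 in B+Con-FMT mice and 180.0, 157 and 178 in B+A10-FMT, with B+A10-FMT below B-sa without overlap (log2 fold change -0.42 ± 0.14 SE, adjusted p = 0.105). Several genes of this list are expressed by other splenic cells. The summed RPKM of 12 macrophage and monocyte markers was 1839 to 2286 in B+Con-FMT mice and 2027 to 2555 in B+A10-FMT, 4 of the 12 (Cd68, Csf1r, Siglec1 and Vcam1) were called higher in B+A10-FMT spleens than in those of B+Con-FMT (7.58% of all genes), and none was at 0. Against B-sa, where their sum was 2064 to 2383, Csf1r and Siglec1 were called higher (4.0% of all genes) and 11 of the 12 estimates were above 0 (median 0.23). Their part in the marginal zone result was not tested. Without B+A10-FMT mouse 2 or without B+Con-FMT mouse 1, 3 of the 12 marginal zone genes were called higher between the transfer groups.

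Some germinal centre transcripts were lower with A10-FMT than with control FMT. Of 16 listed genes 15 were tested, and 7 were called lower (2.78% of all genes) and 0 higher in B+A10-FMT spleens than in those of B+Con-FMT (including Rgs13, Fas, Gcsam, S1pr2, Mybl1 and Neil1, with a median of the list of -0.40, against 0.046 over all genes). Rgs13, a regulator of chemokine signalling in germinal centre B cells, had an RPKM of 6.5, 9.58 and 5.85 in the Con-sa mice, 8.6, 8.19 and 11.3 in B-sa mice, 14.6, 19.5 and 13.6 in B+Con-FMT mice and 6.42, 7.19 and 8.82 in B+A10-FMT, with the B+Con-FMT mice above all others. Rgs13 was lower in B+A10-FMT spleens than in those of B+Con-FMT (log2 fold change -0.99 ± 0.19 SE, adjusted p = 0.0122) and higher in B+Con-FMT than in Con-sa (log2 fold change 1.03 ± 0.19 SE, adjusted p = 0.0105). S1pr2, which confines cells to the germinal centre, had an RPKM of 8.01, 9.97 and 6.79 in the Con-sa mice, 9.93, 7.89 and 8.66 in B-sa mice, 9.18, 14.4 and 9.87 in B+Con-FMT mice and 6.38, 6.22 and 6.76 in B+A10-FMT and was lower in B+A10-FMT spleens than in those of B+Con-FMT (log2 fold change -0.68 ± 0.15 SE, adjusted p = 0.0197).

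In B-sa versus Con-sa, 12 of these 15 genes had estimates above 0, with Ezh2 called higher and Irf8 lower (4.73% and 9.78% of all genes). In B+Con-FMT versus Con-sa, 3 were called higher (including Rgs13 and Fas) and 0 lower, beside 2.30% and 6.57% of all genes. The mean log2(RPKM + 1) of the 15 was 3.84 ± 0.16 in Con-sa mice, 4.0 ± 0.11 in B-sa mice, 4.17 ± 0.19 in B+Con-FMT mice and 3.76 ± 0.072 in B+A10-FMT mice (SD, n = 3). Without B+A10-FMT mouse 2, 1 of the 7 calls between the transfer groups was left, and without B+Con-FMT mouse 2, 3 were left. T cell markers and transcripts of pancreatic acinar cells, whose tissue adjoins the spleen, were also high in B+Con-FMT. The summed RPKM of the 16 T cell markers was 517 to 631 in B+Con-FMT mice and 444 to 527 in B+A10-FMT, and 5 of the 16 were called higher in B+Con-FMT than in Con-sa (2.30% of all genes). The summed RPKM of 8 acinar markers was 5000 to 7759 in B+Con-FMT mice, 819 to 4376 in Con-sa mice, 294 to 2006 in B-sa mice and 299 to 6074 in B+A10-FMT. By mouse, the mean log2(RPKM + 1) of the acinar markers was 7.52, 8.71 and 6.25 in Con-sa mice, 7.27, 5.87 and 4.79 in B-sa mice, 9.30, 9.16 and 8.60 in B+Con-FMT mice and 4.69, 5.32 and 9.04 in B+A10-FMT mice. That of the germinal centre genes was 3.82, 4.02 and 3.70, then 4.12, 3.91 and 3.97, then 4.07, 4.39 and 4.06, and 3.69, 3.76 and 3.83 in the same order. In Con-sa, B-sa and B+A10-FMT the mouse with the highest acinar mean also had the highest germinal centre mean of its group, which was not so in B+Con-FMT. Of the 7 follicular dendritic cell markers, 5 had estimates below 0 in B+A10-FMT relative to B+Con-FMT (median -0.23), with Enpp2 called lower and Coch higher. In B+Con-FMT relative to Con-sa, Cxcl13 was called higher and Coch lower. The part of these other tissues and cells in the germinal centre result was not tested.

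**Figure D5:**
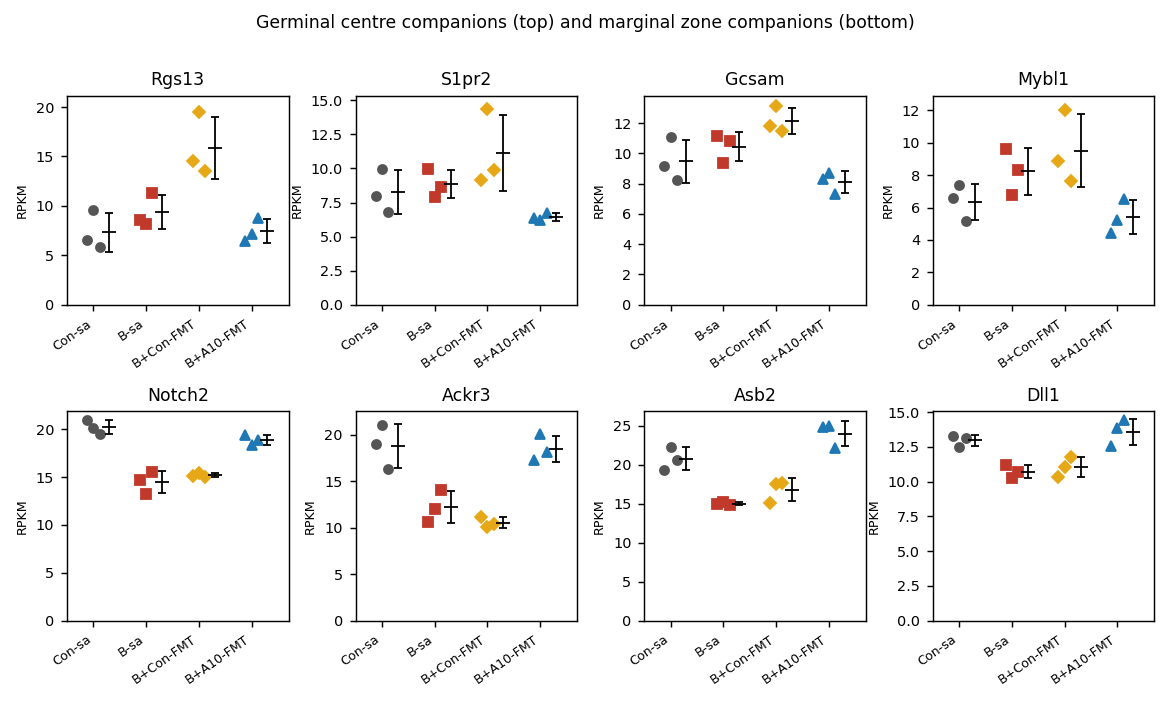
RPKM by mouse of 4 germinal centre genes (top) and 4 marginal zone genes (bottom) outside the module, with each group's mean and SD (n = 3) in black and axes starting at 0. In the top row B+A10-FMT lies below B+Con-FMT for each gene, and in the bottom row above it.

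Plasma cell genes and Cd27 were looked at last. Of 8 plasma cell genes, 0 were called in B-sa versus Con-sa (2 at an unadjusted p under 0.05, which 31.3% of all genes passed), and Irf4 and Sdc1 were called lower in B+Con-FMT than in Con-sa (6.57% of all genes). Cd27, a memory molecule that was read as protein in the study of these mice, had an RPKM of 20.5, 20.2 and 25.6 in the Con-sa mice, 25.1, 17.8 and 21.1 in B-sa mice, 35.1, 24.3 and 27.7 in B+Con-FMT mice and 23.5, 21.8 and 25.3 in B+A10-FMT. Its groups overlapped, it is also expressed by T cells, and it was called in no comparison (log2 fold change -0.053 ± 0.15 SE, adjusted p = 0.833 in B-sa versus Con-sa).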

How the data were processed

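Spleen RNA was taken from 12 mice, 3 per group, and groups were read from the sample labels. The authors used TRIzol extraction, DNase and oligo(dT) enrichment and deposited RPKM per RefSeq transcript, 1 table per mouse. The study's methods name SOAPaligner, the submitters' processing notes name HISAT, Bowtie2 and mm10, and the sequencer also differs between the methods (Illumina) and the labels (BGISEQ). How reads were shared among transcripts, and strand use, is not given in the sources used here. RPKM cannot enter a count test, and depth is an estimate from RPKM steps, so no counting interval is given and precision rests on the spread between mice.

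Here the RPKM of 60654 transcripts were summed to 18221 genes by Entrez identifier, and 18101 matched a RefSeq symbol (GRCm38.p6). The 12671 genes that reached an RPKM of 1 in 3 or more mice entered limma 3.58.1 (R 4.3.3, trend and robust settings, all 12 mice in 1 fit) as log2(RPKM + 1). Two-sided p-values received Benjamini-Hochberg adjustment over those genes in each of 6 comparisons. Fold changes are on that scale and understate changes of low genes. The test was checked on simulated data. Members and gene lists were chosen with earlier results of these data known. Described in full were Ms4a1, Cd79a, Cd79b, Pax5, Ebf1, Cr2, Fcer2a, Cd22, Bcl6, S1pr3, Cd1d1 and Dtx1, up to 6 further called members of largest change per comparison (with under 3 called, the 3 of largest change without overlap), the companions Plcg2, Cxcr5, Cd9, Notch2, Rag1 and Cd27 and up to 3 genes per companion list of smallest adjusted p. Other genes were named after their values were seen, and some genes of the lists are counted in them but not reported by name here. Replicate numbers belong to different mice. Alternatives were another pseudocount, other filters, scalings and transcript sets, the replicate number as a block, fits of 2 groups and each mouse left out. Python 3.11.15 with pandas 2.3.3 and matplotlib 3.10.9 was used for sums and figures.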

Additional observations from a re-analysis of the deposited data

How the results depend on the processing

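With curated transcripts only, members called were 11 lower in B-sa against Con-sa, 0 higher in B+Con-FMT against B-sa, 1 higher in B+A10-FMT against B+Con-FMT and 6 lower in B+Con-FMT against Con-sa, with 0 germinal centre genes higher after busulfan and 4 lower between the transfer groups. All genes called were then 741 in B-sa against Con-sa, 25 in B+Con-FMT against B-sa, 203 in B+A10-FMT against B-sa, 546 in B+A10-FMT against B+Con-FMT, 382 in B+Con-FMT against Con-sa and 1 in B+A10-FMT against Con-sa, against 1838, 107, 668, 1312, 1124 and 52. With the 2 groups alone, 11 members were lower in B-sa against Con-sa, 0 higher in either transfer group against B-sa and 0 lower between the transfer groups, with 1 marginal zone gene higher after busulfan and 972, 32 and 158 genes called in the first 3 comparisons. With the member mean set equal, an alternative chosen after seeing the data, 1 member was higher (Cd72) and 1 lower (Cd22) in B-sa against Con-sa, 0 higher in B+A10-FMT against B-sa, 1 higher in B+A10-FMT against B+Con-FMT, and 3 higher and 2 lower in B+Con-FMT against Con-sa. In that setting, 12 germinal centre genes were higher and 0 lower after busulfan, 2 marginal zone genes were higher and 1 lower, 2 marginal zone genes were higher between the transfer groups, and 5009, 30, 55, 181 and 2834 genes were called in the first 5 comparisons. These split into 4933 higher and 76 lower for B-sa against Con-sa, 23 and 32 in B+A10-FMT against B-sa, 74 and 107 between the transfer groups and 2732 and 102 in B+Con-FMT against Con-sa, and the median of all genes moved to 0.23 in the first and 0.18 in the last.

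With equal totals outside the globin genes, 8 members were higher in B+A10-FMT against B+Con-FMT (member mean difference 0.12 against 0.061), 23 lower in B+Con-FMT against Con-sa, and 180, 2338 and 1837 genes were called in B+Con-FMT against B-sa, B+A10-FMT against B+Con-FMT and B+Con-FMT against Con-sa. With median-of-ratios scaling, 1 member was higher in B+A10-FMT against B+Con-FMT. Each of these scalings, and RPKM of at least 1 in every mouse, gave 2 germinal centre genes higher after busulfan against 1, and the last gave 29 genes in B+A10-FMT against Con-sa. Without a filter, 71 genes were called in B+Con-FMT against B-sa and 1 member was lower in B+A10-FMT against B+Con-FMT. The causes were not tested.

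Replicate numbers did not pair the mice. Same-numbered deviations correlated from -0.373 to 0.303, and the replicate block gave 417 genes in B+A10-FMT against B-sa, and 1 member higher and 1 lower in B+A10-FMT against B+Con-FMT.

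Leaving out 1 mouse gave 8 to 26 members lower in B-sa against Con-sa (513 to 2100 genes), 0 to 4 higher in B+Con-FMT against B-sa (19 to 466), 0 to 8 higher in B+A10-FMT against B-sa (106 to 832), 1 to 3 higher and 0 to 2 lower in B+A10-FMT against B+Con-FMT (218 to 1160), 4 to 9 lower in B+Con-FMT against Con-sa (329 to 659) and 0 to 1 lower in B+A10-FMT against Con-sa (1 to 49). Germinal centre genes numbered 1 to 2 higher and 0 to 1 lower after busulfan and 1 to 7 lower between the transfer groups, and marginal zone genes 5 to 7 lower after busulfan and 3 to 7 higher between the transfer groups.

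Estimates turned positive in B-sa against Con-sa for Cr2 (0.53) and Pax5 (0.15) with curated transcripts. With median-of-ratios scaling 2 of the 37 member estimates in that comparison were above 0, and with the member mean set equal 17 were, of which Cd72 was called. In the latter setting the values included Cr2 (0.18), Pax5 (0.10), Cd27 (0.22), S1pr3 (0.11), Cd40 (0.017), Dll1 (0.015), Fcer2a (0.0051) and Fcmr (0.0038), and for Lyn in B+Con-FMT against Con-sa (0.0015). With 1 mouse left out, the Cr2 estimate ranged from -0.17 to 0.0077 (without B-sa mouse 2) and that of Cd27 from -0.17 to 0.065 (without B-sa mouse 2), and Cd27 was also positive without Con-sa mouse 3 (0.053). Other than Cd72, none of these was called. Mouse number and an estimated depth limit the precision of every value.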

Other observations

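Il7r, the receptor for interleukin 7 that serves B cell precursors and also T cells, had an RPKM of 17.2, 17.0 and 18.9 in the Con-sa mice, 15.6, 11.3 and 15.1 in B-sa, 21.4, 18.8 and 19.4 in B+Con-FMT and 19.7, 19.0 and 21.0 in B+A10-FMT. Its B-sa mice were below all others. Il7r was called lower in B-sa relative to Con-sa (log2 fold change -0.33, limma adjusted p = 0.043) and higher than in B-sa in both B+Con-FMT (0.49, adjusted p = 0.0409) and B+A10-FMT (0.49, adjusted p = 0.0188). These comparisons share the B-sa mice. Without B-sa mouse 2 the adjusted p was 0.137, 0.0838 and 0.0432 in that order. The first call was also lost without any 1 Con-sa mouse (adjusted p = 0.0869, 0.079 and 0.127), the second without B-sa mouse 3 (0.0599) or any 1 B+Con-FMT mouse (0.186, 0.0891 and 0.062), and the third without B+A10-FMT mouse 2 or 3 (0.0616 and 0.0559).

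Among 7 plasmacytoid dendritic cell markers, which include the transcription factor gene Tcf4, Siglech and Tcf4 were called lower in B-sa relative to Con-sa (9.78% of all genes), 0 were called higher, and all 7 estimates were below 0. Klk1 carried the lowest of them (-1.30, adjusted p = 0.392), and its RPKM of 42.1, 86.5 and 22.4 in Con-sa mice, 37.8, 12.8 and 10.03 in B-sa mice, 145, 112 and 85.4 in B+Con-FMT mice and 7.22, 10.6 and 93.9 in B+A10-FMT mice was highest in mice with high pancreatic acinar transcripts, whose part in its estimate was not tested. In B+Con-FMT versus Con-sa, 4 were called lower and 0 higher, beside 6.57% and 2.30% of all genes.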
